A study of Arabidopsis thaliana with 6 samples.

Results

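Leaf senescence and chlorophyll breakdown were read in *Arabidopsis thaliana* seedlings from 10 of the 27444 nuclear genes in the files, chosen by gene identifier. They are the transcription factor genes *ORE1*, *NAP*, *WRKY53* and *WRKY6*, the marker genes *SAG12* and *SAG13*, and the chlorophyll breakdown genes *NYC1*, *NYE1*, *PPH* and *PAO*. All 10 were found, and 9 had enough counts to be tested. RNA came from whole seedlings in the *Col-0* background, with 3 libraries of the double mutant *lon1-2atg5-1* and 3 of the single mutant *atg5-1*. Both genotypes carry the T-DNA insertion *atg5-1* in *ATG5*, which is needed to form autophagosomes, and *lon1-2atg5-1* carries a second T-DNA insertion, *lon1-2*, in the gene of the mitochondrial protease Lon1. Seedlings were 7 days old in the series description and 10 days old in the methods of the study, so these are young plants and not ageing leaves. No *Col-0* or *lon1-2* library was analysed here, and every difference below is that of *lon1-2atg5-1* from *atg5-1*, in plants that carry *atg5-1* throughout.

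Leaf senescence is the programmed dismantling of a leaf, in which chloroplast proteins and pigments are broken down and their nitrogen is moved to growing organs or seeds. NAC and WRKY transcription factors regulate it. ORE1 and NAP act downstream of ethylene and abscisic acid and switch on chlorophyll breakdown genes. WRKY53 and WRKY6 also respond to salicylic acid and pathogens. Chlorophyll *b* is first reduced by NYC1, magnesium is then removed by NYE1 (also called SGR1), the phytol tail is cut off by PPH, and the ring is opened by PAO.

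The libraries were alike in depth, with totals of 21964283 to 23929531 counts in *lon1-2atg5-1* and 22154558 to 22972992 counts in *atg5-1*. *LON1*, which separates the genotypes by design, had 196, 126 and 95 counts in *lon1-2atg5-1* and 671, 528 and 602 counts in *atg5-1*, a log2 fold change of -2.10 (SE 0.22, adjusted p = 0.000141). *ATG5* transcript remained in both genotypes, with 1319, 930 and 636 counts in *lon1-2atg5-1* and 516, 520 and 436 counts in *atg5-1*, and the gene overlaps *AT5G17280* on the opposite strand. Of 20157 genes tested, 10781 (53.5%) passed an adjusted p of 0.05, with 27.7% higher and 25.8% lower in *lon1-2atg5-1*. With a fold change over 1.5 as well, 14.0% were higher and 13.7% lower. Each adjusted p comes from edgeR (quasi-likelihood test, Benjamini-Hochberg over all genes tested), and a gene is written to have risen or fallen only where that value was under 0.05. The series text speaks of biological triplicates but does not tie them to separate plantings, so p-values measure the spread between these libraries.

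Before the values, stretches of DNA upstream of 3 of the genes are shown from the TAIR10.1 genome as examples of letters that senescence regulators recognise. The stretches were picked for their matches, and the genes share motifs over longer distances: *NYE1* and *PPH* both hold TTGACT within 1000 bases, and *WRKY53* holds CATGTG and ATGTAC there. Each runs 5′ to 3′ toward the gene with the motif letters in capitals. *WRKY53* is shown for its pair of W-boxes (TTGACC, the letters that WRKY factors bind), at 219 to 214 and at 71 to 66 bases before its annotated start. It lies between genes at chr4:12393983-12394232 on the minus strand.
WRKY53: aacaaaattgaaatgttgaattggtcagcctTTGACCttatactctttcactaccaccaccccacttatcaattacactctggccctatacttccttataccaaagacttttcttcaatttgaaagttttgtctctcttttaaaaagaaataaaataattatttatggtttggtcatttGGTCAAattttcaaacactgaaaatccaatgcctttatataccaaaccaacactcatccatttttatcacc
The *NYE1* stretch, 829 to 702 bases before the start at chr4:12019345-12019472 on the minus strand, was picked because a second kind of W-box (TTGACT), a G-box (CACGTG, bound by bZIP and PIF factors) and a core of the ethylene factor EIN3 (ATGTAC) lie close together there. It is a whole intron of the neighbouring gene *AT4G22930*, which runs on the opposite strand.
NYE1: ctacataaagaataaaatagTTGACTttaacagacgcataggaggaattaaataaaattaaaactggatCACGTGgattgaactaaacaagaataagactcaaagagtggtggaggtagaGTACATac
*PPH* is shown for the letters CATGTG, part of sites bound by NAC factors, in the last 6 bases before its start. The stretch lies between genes at chr5:4454814-4455063 on the minus strand.
PPH: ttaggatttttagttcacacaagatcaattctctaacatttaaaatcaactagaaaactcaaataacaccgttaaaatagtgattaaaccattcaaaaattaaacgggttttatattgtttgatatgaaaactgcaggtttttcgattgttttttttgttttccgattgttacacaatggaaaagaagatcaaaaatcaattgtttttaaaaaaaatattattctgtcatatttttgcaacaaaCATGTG

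Searched on both strands over the 250 bases before each start, TTGACC was found in 1 of the 10 genes, *WRKY53*, against 12.2% of 27443 protein-coding genes. With TTGACT counted too, *WRKY53* was still the only one, against 28.4% of genes. CACGTG was found in *NAP* alone (6.49% of genes), CATGTG in *SAG12*, *NYC1* and *PPH* (11.1%), and ATGTAC in *NAP* and *NYC1* (9.52%). CACGTAAGT, a site of NAP, was in 0 of the 10 (0.0802% of genes), and the mitochondrial dysfunction motif, bound by NAC factors of mitochondrial stress signalling, was also in 0 of the 10 (1.75%). Over 1000 bases, 7 of the 10 held either W-box, against 67.3% of genes, and the G-box was in *NAP*, *WRKY6* and *NYE1* (14.8% of genes). *WRKY53* held CATGTG at 376 to 371 and ATGTAC at 373 to 368 bases before its start, which overlap, and *SAG13* held none of these motifs over 1000 bases. A match describes letters only, and binding was not measured.

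In *lon1-2atg5-1* the genes did not move as a block. Of the 9 tested, *SAG13*, *WRKY53* and *WRKY6* rose, *NYE1*, *PPH* and *ORE1* fell, and *NAP*, *NYC1* and *PAO* did not pass the test, which gives 3 higher against a background of 27.7% of genes and 3 lower against 25.8%. With a fold change over 1.5, 3 were higher and 2 lower, against 14.0% and 13.7% of genes tested. All *lon1-2atg5-1* libraries lay above all *atg5-1* libraries for 3 of the genes and below them for 3, against 32.3% and 30.9% of genes tested (63.2% in either direction). The median log2 fold change of the 9 was -0.0248, against -0.000336 over all genes tested. The median, the calls by adjusted p alone and the separation of libraries thus lay near those of the transcriptome at large. The shares called with a fold change over 1.5 were larger than those of all genes, a difference that was not tested. The values of single genes were further from 0: 0.833% of genes tested changed more than *SAG13* in either direction and 1.23% more than *WRKY53*, while 19% changed more than *NYE1* and 21.1% more than *PPH*. In whole seedlings, fewer cells of a type and less RNA per cell cannot be told apart.

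**Figure D1:**
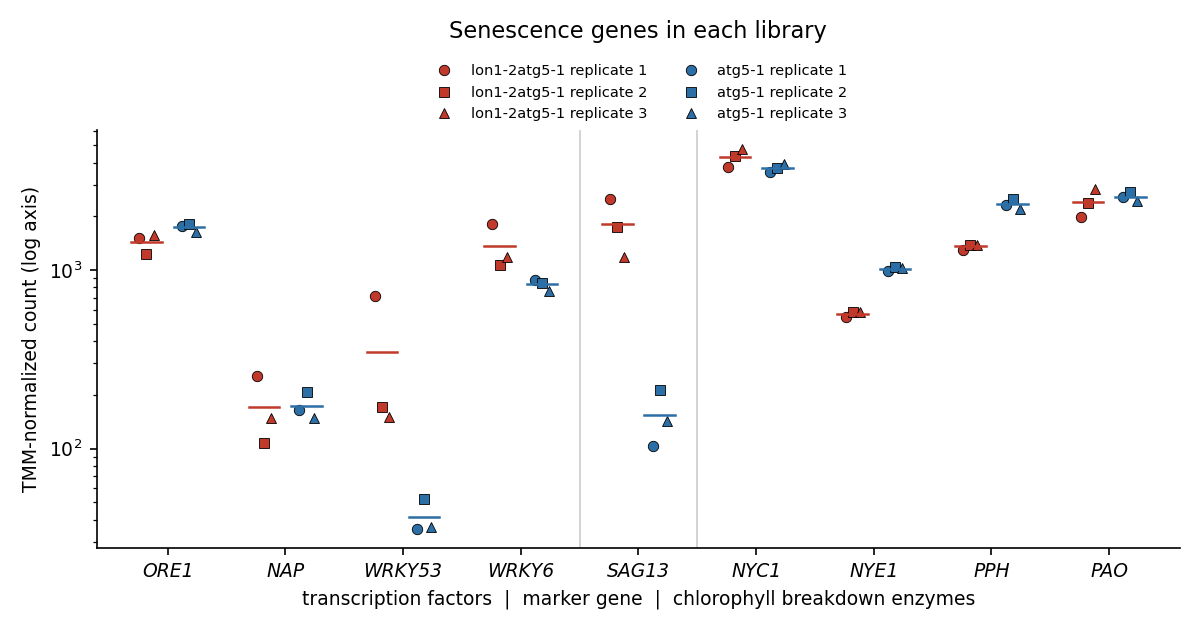
TMM-normalized counts (log axis) of 9 senescence genes in the 3 *lon1-2atg5-1* libraries (red, left) and the 3 *atg5-1* libraries (blue, right), with a bar at each mean and a marker shape for each replicate number; *SAG12*, with 1 count in all, is left out, and heights compare libraries within a gene, not genes with each other. All red points lie above all blue points for *WRKY53*, *WRKY6* and *SAG13* and below them for *ORE1*, *NYE1* and *PPH*, and replicate 1 of *lon1-2atg5-1* stands high for *WRKY53*.

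The NAC genes had smaller log2 fold changes than the WRKY genes, a difference that was not tested. *ORE1* (AT5G39610, also *ANAC092*), a main promoter of age-dependent senescence and cell death downstream of ethylene, had 1523, 1190 and 1596 counts in *lon1-2atg5-1* against 1851, 1771 and 1604 counts in *atg5-1*. After normalization these were 1436 ± 177 and 1737 ± 96.5 counts (SD, n = 3 each), with every *lon1-2atg5-1* library below every *atg5-1* library, though the nearest pair almost touched. *ORE1* fell by 0.27 on the log2 scale (SE 0.0954, adjusted p = 0.0398), a 1.21-fold lower level. Its adjusted p was over 0.05 in 4 of the 6 fits that left out 1 library, those without *lon1-2atg5-1* replicate 2 (adjusted p = 0.104) or *atg5-1* replicate 1, 2 or 3 (adjusted p = 0.109, 0.124 and 0.0537). *NAP* (AT1G69490, *ANAC029*), which links abscisic acid to chlorophyll breakdown, had 258, 104 and 151 counts in *lon1-2atg5-1* and 172, 203 and 147 counts in *atg5-1*. The *lon1-2atg5-1* libraries lay on both sides of the *atg5-1* libraries, and the log2 fold change of -0.02 (SE 0.29, adjusted p = 0.947) gave no direction.

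The WRKY genes were both higher in *lon1-2atg5-1*. *WRKY53* (AT4G23810), an early regulator that rises before a leaf yellows and can bind its own promoter, had 727, 165 and 154 counts in *lon1-2atg5-1* against 37, 51 and 36 counts in *atg5-1*. The genotypes did not overlap, but replicate 1 of *lon1-2atg5-1* was 4.75 times the lowest library of that genotype after normalization. The log2 fold change was 3.07 (SE 0.66, adjusted p = 0.00503), an 8.40-fold higher level, and without that library it was 1.96 and still passed. *WRKY53* overlaps *AT4G23800* by 341 bp on the opposite strand, and how counting used strand is not given in the sources used here. *AT4G23800* itself had 494, 589 and 689 counts in *lon1-2atg5-1* and 712, 559 and 660 counts in *atg5-1* (log2 fold change -0.11, adjusted p = 0.465), with no high value in the library where *WRKY53* was high. *WRKY6* (AT1G62300), which acts in senescence and in defence and phosphate responses, had 1833, 1032 and 1207 counts in *lon1-2atg5-1* and 919, 832 and 757 counts in *atg5-1*. The genotypes again did not overlap, and the same *lon1-2atg5-1* replicate 1 was the highest. *WRKY6* rose by a log2 fold change of 0.70 (SE 0.18, adjusted p = 0.0116), or 1.63-fold. Without *lon1-2atg5-1* replicate 1 it was 0.44 and still passed, and without *atg5-1* replicate 3 it was 0.65 and did not (adjusted p = 0.0503).

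The marker genes stood at opposite ends of detection. *SAG12* (AT5G45890), a cysteine protease gene that is the most specific marker of developmental senescence, had 1, 0 and 0 counts in *lon1-2atg5-1* and 0, 0 and 0 counts in *atg5-1*. A count of 0 allows up to 3 counts, or 0.10 FPKM (counts scaled by exonic length and library total) in each library, and this covers counting error only. *SAG12* was therefore not detectable at this depth in 5 of the 6 libraries and was not tested. *SAG13* (AT2G29350), a short-chain dehydrogenase gene induced early in senescence and also by pathogens and oxidative stress, had 2529, 1676 and 1199 counts in *lon1-2atg5-1* against 108, 210 and 141 counts in *atg5-1*. The lowest *lon1-2atg5-1* library was thus far above the highest *atg5-1* library, and within both genotypes libraries differed by about the same factor, 2.12 in *lon1-2atg5-1* and 2.07 in *atg5-1*. *SAG13* rose by a log2 fold change of 3.56 (SE 0.33, adjusted p = 8.92e-05), to an 11.8-fold higher level, and it ranked 117th from the top of all genes tested. With each library left out in turn it stayed between 3.25 and 3.87.

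Of the chlorophyll breakdown enzymes, those of the middle steps fell and those at either end did not pass the test. *NYC1* (AT4G13250), chlorophyll *b* reductase, had 3826, 4219 and 4864 counts in *lon1-2atg5-1* and 3714, 3667 and 3867 counts in *atg5-1*, with overlapping libraries and a log2 fold change of 0.20 (SE 0.0931, adjusted p = 0.0955). It passed the test without *lon1-2atg5-1* replicate 1, its lowest library (0.29, adjusted p = 0.0102). *NYE1* (AT4G22920), magnesium dechelatase, had 549, 559 and 597 counts in *lon1-2atg5-1* and 1030, 1026 and 1008 counts in *atg5-1*. Libraries of each genotype agreed closely, at 569.9 ± 23.4 and 1019 ± 29.2 normalized counts (SD, n = 3 each), and *NYE1* fell by 0.84 on the log2 scale (SE 0.0623, adjusted p = 3.56e-05), a 1.79-fold lower level. *PPH* (AT5G13800), pheophytinase, had 1312, 1339 and 1413 counts in *lon1-2atg5-1* and 2412, 2443 and 2167 counts in *atg5-1*. It fell by 0.78 on the log2 scale (SE 0.0685, adjusted p = 7.05e-05), 1.72-fold lower, again with a wide gap between genotypes. *PAO* (AT3G44880), pheophorbide *a* oxygenase, had 2002, 2296 and 2895 counts in *lon1-2atg5-1* and 2681, 2673 and 2419 counts in *atg5-1*, which overlap, and a log2 fold change of -0.11 (SE 0.12, adjusted p = 0.489). It passed as lower without *lon1-2atg5-1* replicate 3 (-0.24, adjusted p = 0.044) and was 0.0179 without *lon1-2atg5-1* replicate 1. The end of *PAO* shares 11 bp with *AT3G44870* on the same strand.

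**Figure D2:**
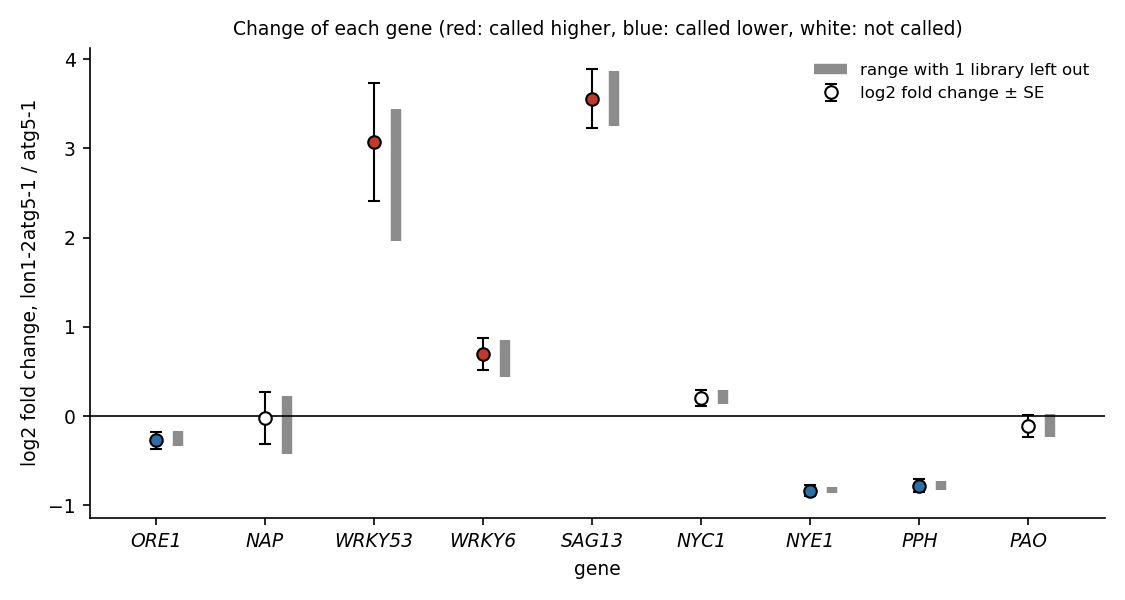
Log2 fold change of *lon1-2atg5-1* over *atg5-1* for the 9 tested senescence genes, with SE (points and bars) and the range over the 6 fits that leave out 1 library (grey). *NYE1* and *PPH*, at -0.84 and -0.78, have the shortest bars among the genes that changed more than 1.5-fold, and *WRKY53*, between 1.96 and 3.44 with 1 library left out, has the longest.

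Because a ratio within a library does not depend on how libraries were scaled, the enzymes were also set against each other by FPKM. *NYE1* stood at 0.168, 0.155 and 0.144 of the *NYC1* level in *lon1-2atg5-1* and at 0.325, 0.328 and 0.305 in *atg5-1*. *PPH* stood at 0.309, 0.286 and 0.262 of *NYC1* in *lon1-2atg5-1* and at 0.586, 0.601 and 0.506 in *atg5-1*, so both ratios separated the genotypes with no overlap. The ratio of *PPH* to *PAO*, 0.577, 0.513 and 0.430 in *lon1-2atg5-1* and 0.792, 0.805 and 0.789 in *atg5-1*, did so too. In contrast, *NYE1* over *PPH* was 0.543, 0.542 and 0.548 in *lon1-2atg5-1* and 0.554, 0.545 and 0.604 in *atg5-1*, which lie close together. These ratios show unequal change between genes and not which of a pair moved.

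**Figure D3:**
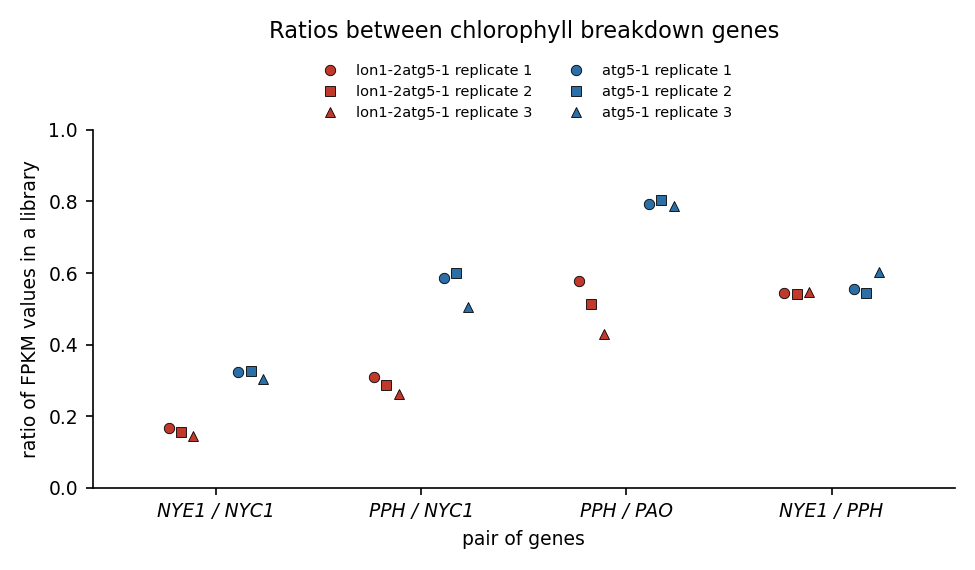
Ratio of FPKM values between pairs of chlorophyll breakdown genes in each *lon1-2atg5-1* library (red, left) and each *atg5-1* library (blue, right). The ratios to *NYC1* and *PAO* are lower in all *lon1-2atg5-1* libraries, while *NYE1* over *PPH* lies between 0.542 and 0.604 in all 6 libraries.

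Ordered by mean FPKM, *NYC1* was the most abundant of the 10 in both genotypes, at 91.2 ± 8.11 in *lon1-2atg5-1* and 80.9 ± 3.22 in *atg5-1* (SD, n = 3 each). In *lon1-2atg5-1* it was followed by *SAG13* (58.2 FPKM), *PAO* (52.0), *ORE1* (47.9), *PPH* (26.0), *WRKY6* (25.7), *NYE1* (14.1), *WRKY53* (10.2) and *NAP* (6.0). In *atg5-1* the order after *NYC1* was *ORE1* (59.1 FPKM), *PAO* (57.2), *PPH* (45.5), *NYE1* (25.8), *WRKY6* (16.0), *NAP* (6.19), *SAG13* (5.0) and *WRKY53* (1.22), and *SAG12* was last in both. Libraries of neighbours in that order overlapped for *SAG13* with *PAO*, *PAO* with *ORE1*, *PPH* with *WRKY6*, *NYE1* with *WRKY53* and *WRKY53* with *NAP* in *lon1-2atg5-1*, and for *ORE1* with *PAO* and *NAP* with *SAG13* in *atg5-1*. *SAG13* was thus eighth of the 10 in *atg5-1* and second in *lon1-2atg5-1*.

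Of 11 further chlorophyll breakdown genes, 2 rose and 3 fell, near the shares of all genes tested (27.7% higher and 25.8% lower), and the median log2 fold change was -0.0754. *CLH1*, a chlorophyllase that acts outside the main senescence route, had 868, 976 and 844 counts in *lon1-2atg5-1* and 223, 224 and 227 counts in *atg5-1*, a log2 fold change of 2.00 (SE 0.0959, adjusted p = 6.31e-06), the highest of the list. *ACD2*, the red chlorophyll catabolite reductase, rose by 0.30 (adjusted p = 0.00958), though it shares 167 bp with *AT4G37010*. *NYE2*, the paralog of *NYE1*, had 43, 48 and 34 counts in *lon1-2atg5-1* and 76, 76 and 76 counts in *atg5-1* and fell by 0.86 on the log2 scale (adjusted p = 0.00529), close to the -0.84 of *NYE1*. *MES16* and *CYP89A9*, which modify the late, colourless catabolites, fell by 0.90 and 0.60 (adjusted p = 0.0256 and 0.0134). Both lost the call without *lon1-2atg5-1* replicate 2, *atg5-1* replicate 1 or *atg5-1* replicate 2, and the list then held 3 called genes in place of 5. The chlorophyll *b* reductase subunit gene *NOL* (0.18), the hydroxymethyl chlorophyll *a* reductase gene *HCAR* (-0.10), *SGRL* (-0.08), *CLH2* (-0.16), *TIC55* (0.14) and the chloroplast vesiculation gene *CV* (0.02) did not pass. *NOL* and *TIC55* passed as higher without *lon1-2atg5-1* replicate 1 (0.24 and 0.25, adjusted p = 0.0358 and 0.0107).

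Of 16 genes of chlorophyll synthesis, the opposite arm, from *HEMA1* to *CAO*, 9 rose and 0 fell by edgeR's quasi-likelihood test, against 27.7% and 25.8% of all genes tested, and the median log2 fold change was 0.43. At an unadjusted p under 0.05, and also with DESeq2, 0 were lower. *PORB* and *PORC*, which encode the light-dependent protochlorophyllide reductases, rose by 1.17 and 0.89, and *DVR*, the divinyl reductase, by 0.92 (adjusted p = 0.000484, 7.85e-05 and 3.77e-05). *PORB* had 16315, 13450 and 10308 counts in *lon1-2atg5-1* against 6250, 5479 and 6205 counts in *atg5-1*.

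**Figure D4:**
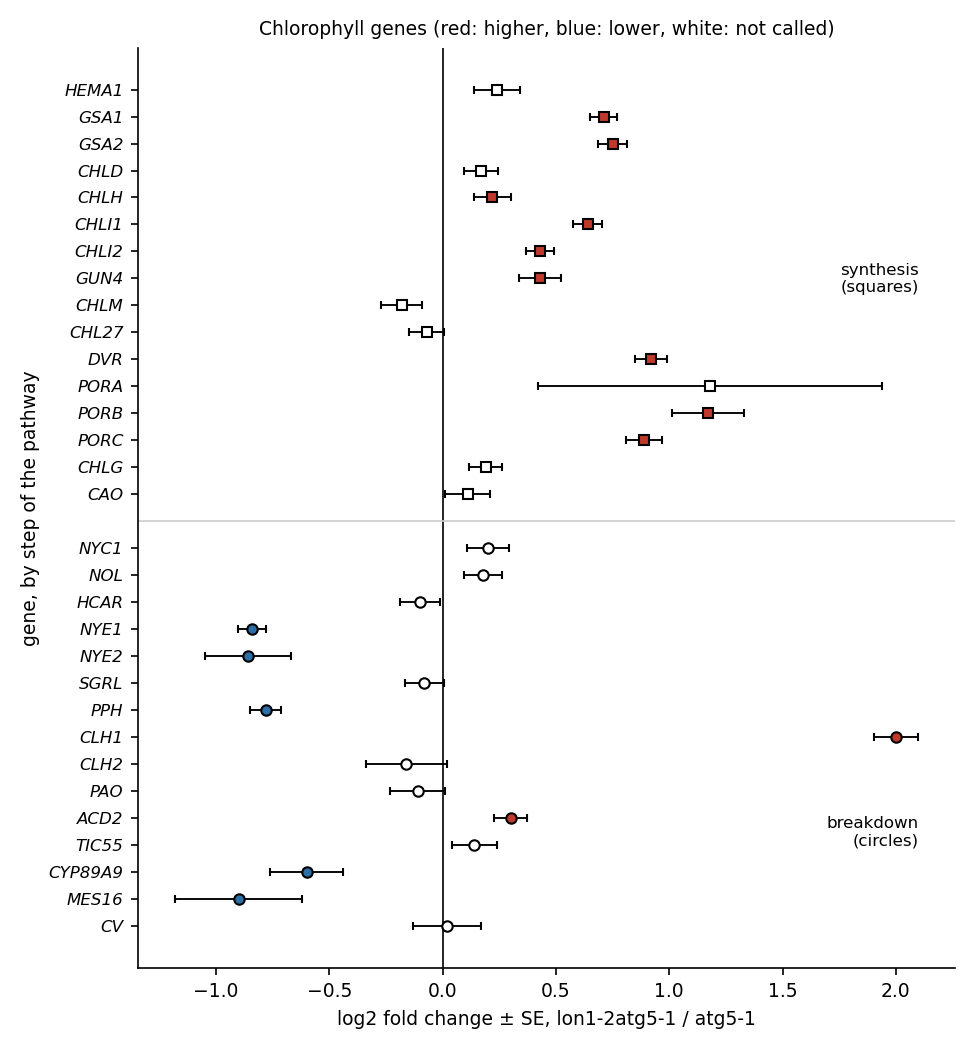
Log2 fold change ± SE of *lon1-2atg5-1* over *atg5-1* for 16 genes of chlorophyll synthesis (squares) and 15 of chlorophyll breakdown (circles), each grouped by step from top to bottom. In the upper part 9 genes are called higher and 0 lower, and in the lower part *NYE1*, *NYE2*, *PPH*, *CYP89A9* and *MES16* are lower while *CLH1* and *ACD2* are higher.

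Other regulators were then read by family, without sorting genes that promote senescence from genes that restrain it. Of 14 further senescence NAC genes, 2 rose and 4 fell, against 27.7% and 25.8% of all genes tested, with a median of -0.13. *NAC019*, a stress and jasmonate NAC gene, rose by 1.85 on the log2 scale with 122, 115 and 101 counts in *lon1-2atg5-1* against 25, 42 and 27 counts in *atg5-1*, and *NAC016* rose by 0.42. The call of *NAC016* was lost without *lon1-2atg5-1* replicate 1 or *atg5-1* replicate 1 or 3 (adjusted p = 0.0844, 0.103 and 0.0811), with the replicate block (0.0678) and with limma on log2(FPKM + 1) and log2(FPKM + 0.1) (0.0505 and 0.0532). *ORS1*, the closest relative of *ORE1*, fell by 1.01 (489, 403 and 470 counts in *lon1-2atg5-1* against 1038, 908 and 819 counts in *atg5-1*), *ATAF1* by 0.67 and *NAC046*, an activator of chlorophyll breakdown genes, by 0.55. Of 10 other senescence WRKY genes, 9 were tested, and the median was 0.92. The fit called 6 higher and 2 lower, against 27.7% and 25.8% of all genes tested. The 6 and the median include *WRKY71*, whose test is not read for the reason given below, and both would be lower without it. *WRKY70* and *WRKY54*, a pair that responds to salicylic acid, rose by 1.49 and 2.49. *WRKY71* had 80, 30 and 38 counts in *lon1-2atg5-1* against 3, 3 and 7 counts in *atg5-1*. It passed the filter on low counts through *lon1-2atg5-1* alone, so its test and the size of its fitted change are not read. *WRKY45* and *WRKY25* fell by 0.89 and 0.39, the second not without *atg5-1* replicate 2 (adjusted p = 0.0574). In 7 of the 9 the highest *lon1-2atg5-1* library was replicate 1, as it was for *WRKY53* and *WRKY6*.

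Of 14 regulators linked to *ORE1*, *NAP* or *NYE1*, most act above them and *SAG113*, a phosphatase gene, below *NAP*. In this list 1 rose and 6 fell, each by less than 1.5-fold, against 27.7% and 25.8% of all genes tested. The median was -0.23. *EIN3*, which activates *ORE1* and *NYE1* in the ethylene pathway, had 3017, 2961 and 3384 counts in *lon1-2atg5-1* against 4450, 4517 and 4383 counts in *atg5-1* and fell by 0.51 on the log2 scale (adjusted p = 0.000527). *PIF5* and *ABF4*, factors of dark-induced and abscisic acid-induced senescence, fell by 0.51 and 0.40, and *PIF4* rose by 0.31. *ABF4* overlaps *AT3G03815* by 2516 bp on the opposite strand, the same limit as for *WRKY53*. *PIF4* did not pass without replicate 1 or 2 of *lon1-2atg5-1* (adjusted p = 0.0663 and 0.111) or replicate 1 or 2 of *atg5-1* (0.106 and 0.06), nor with library size alone (0.0525), the replicate block (0.0536) or limma on log2(FPKM + 1) or log2(FPKM + 0.1) (0.0704 and 0.0695).

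Among 16 other senescence-associated genes 3 rose and 11 fell, against 27.7% and 25.8% of all genes tested, with a median of -0.44. *SEN1*, induced by darkness and sugar starvation, had 1029, 1524 and 2815 counts in *lon1-2atg5-1* and 10449, 11012 and 7932 counts in *atg5-1*, and fell by 2.45 on the log2 scale (SE 0.33, adjusted p = 0.000472). *BFN1*, a nuclease gene that is a target of ORE1, had 71, 60 and 52 counts in *lon1-2atg5-1* and 324, 308 and 316 counts in *atg5-1*, and fell by 2.36 (SE 0.13, adjusted p = 1.15e-05). *XTH24* fell by 1.83, with 5637, 5430 and 7397 counts in *lon1-2atg5-1* and 22137, 24529 and 19042 counts in *atg5-1*. In each of these the genotypes lay far apart. *FRK1*, a receptor kinase gene that is also a target of WRKY6 and a marker of pathogen responses, went the other way, with 570, 411 and 439 counts in *lon1-2atg5-1* against 109, 126 and 86 counts in *atg5-1* (log2 fold change 2.15, adjusted p = 4.19e-05). *SWEET15*, a sugar transporter gene, and *SAG101*, a lipase-like defence gene, rose by 0.50 and 0.37. Each lost its call in several fits without 1 library, *SWEET15* without replicate 2 or 3 of *lon1-2atg5-1* or 1 or 2 of *atg5-1* (adjusted p of 0.0918 to 0.13) and *SAG101* without replicate 1 of *lon1-2atg5-1* or 1 or 3 of *atg5-1* (0.0815 to 0.126). *SAG101* also lost it with library size alone (0.0529), the replicate block (0.0724) and limma on log2(FPKM + 1) and log2(FPKM + 0.1) (0.0714 and 0.0699).

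All 8 genes of nitrogen remobilisation passed the test, against 53.5% of all genes tested, 4 higher and 4 lower with a median of -0.12. With the replicate block, or without *atg5-1* replicate 1 or 3, 7 passed. *ASN1*, asparagine synthetase, had 131, 596 and 796 counts in *lon1-2atg5-1* against 4232, 5734 and 4127 counts in *atg5-1* and fell by 3.20 on the log2 scale (SE 0.52, adjusted p = 0.00125). *GLN1;4* and *GDH2* fell by 1.07 and 1.05, whereas the nitrate transporter gene *NPF2.13* rose by 1.35 and the cytosolic glutamine synthetase genes *GLN1;1* and *GLN1;2* by 0.66 and 0.39.

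**Figure D5:**
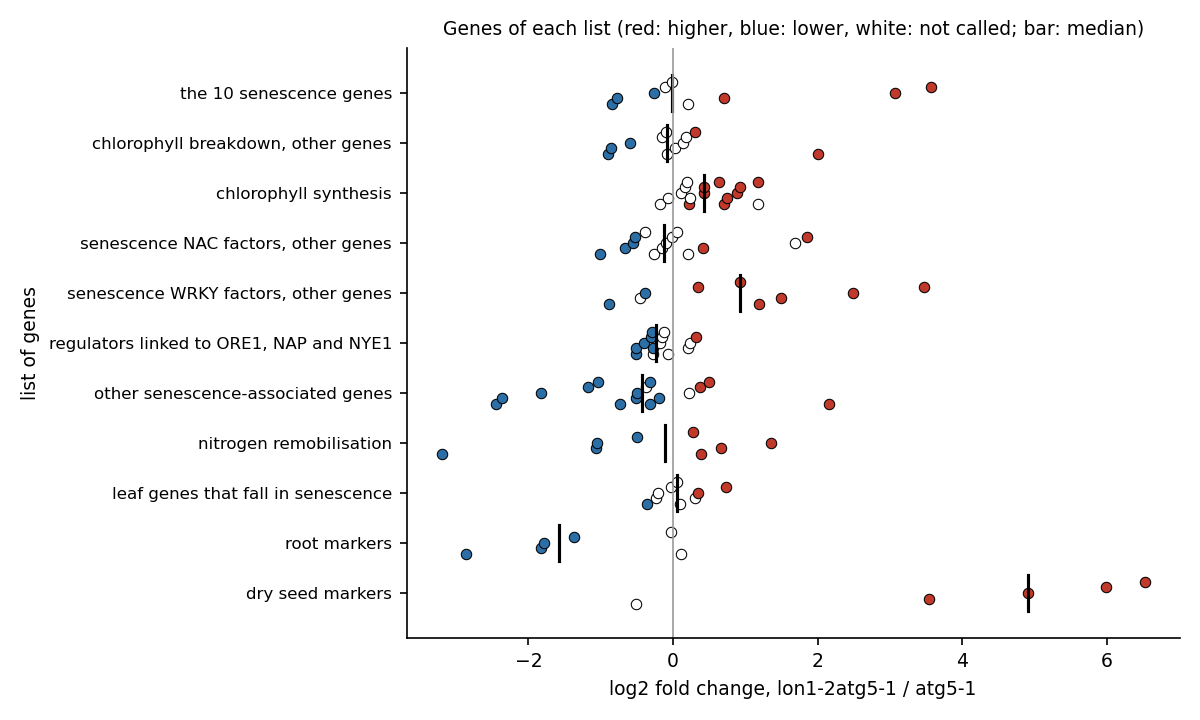
Log2 fold change of *lon1-2atg5-1* over *atg5-1* for each tested gene of the 10 senescence genes and of 10 further lists, with a bar at the median (red: called higher, blue: called lower, white: not called). Other senescence-associated genes lie mostly on the lower side (11 of 16 called lower). Senescence WRKY factors lie mostly on the higher side (6 of 9 in red). The 6 include *WRKY71*, which had at most 7 counts in *atg5-1* and whose test is not read. The 4 dry seed markers far to the right had at most 6 counts in *atg5-1* and passed the filter on low counts through *lon1-2atg5-1* alone. Their positions are set by the prior count, and neither position nor colour is read.

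Markers of leaf, root and dry seed were read beside these genes. The 9 leaf genes that senescing leaves shut down belong to the light-harvesting and Rubisco small subunit families. *RBCS1B* and *RBCS1A* rose by 0.73 and 0.34, and *LHCB1.1* fell by 0.36. Over the 9 leaf genes, 2 were thus higher and 1 lower, against 27.7% and 25.8% of all genes tested, with a median of 0.0531. Their summed normalized counts were 1107390 to 1252850 in *lon1-2atg5-1* and 1036590 to 1109510 in *atg5-1*. *RBCS1A* did not pass without replicate 2 or 3 of *lon1-2atg5-1* or any one of *atg5-1* (adjusted p of 0.0805 to 0.116), with limma on log2(FPKM + 1) and log2(FPKM + 0.1) (0.302 and 0.309) or with the replicate block (0.0797), nor *LHCB1.1* without *atg5-1* replicate 3 (0.0614), which left 1 called gene. Several of these genes share stretches of 90.4% to 96.1% identity with relatives, and how reads from such stretches were counted is not given in the sources used here. Of 6 root markers, 4 fell and 0 rose by edgeR's test, against 25.8% and 27.7% of all genes tested, and the median was -1.58. At an unadjusted p under 0.05, and also with DESeq2, 0 were higher. Log2 fold changes were -2.87 for the aquaporin gene *PIP2;4*, and -1.82 and -1.79 for the root hair genes *COBL9* and *EXPA7*. *SCR* and *PYK10* did not pass (0.11 and -0.03). The sum, led by the abundant *PYK10*, was 55490 to 60017 in *lon1-2atg5-1* and 58338 to 62210 in *atg5-1*. Of 6 dry seed markers, 4 (*CRU3*, *SESA1* and *CRA1* among them) had 15 to 162 counts in *lon1-2atg5-1* libraries and 0 to 6 counts in *atg5-1* libraries. They passed the filter on low counts through *lon1-2atg5-1* alone, so their test and the size of their fitted change are not read. The sums over the 6 were 208 to 397 in *lon1-2atg5-1* and 18.3 to 25.5 in *atg5-1*, and *EM1* had at most 1 count in every library. *EM6* went the other way, with 10, 10 and 10 counts in *lon1-2atg5-1* and 14, 16 and 13 counts in *atg5-1*, and did not pass (log2 fold change -0.51). Counts of 4 of the 6 root markers and 4 of the 6 dry seed markers thus differed between the genotypes along with the senescence genes. The part of these markers in the values of the senescence genes was not tested.

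For each gene called at over 1.5-fold, the listed gene with the most similar log2 CPM over the 6 libraries was found by Pearson's r among 116 others, as a description that mostly follows the 2 genotypes. *PPH* was closest to *NYE1* and *NYE1* to *PPH* (r = 0.99), *WRKY70* was closest to *WRKY53* (r = 0.98) and *WRKY53* to *WRKY6* (r = 0.97). In second place were *EIN3* for *NYE1*, *XTH24* for *PPH* and *NAC019* for *SAG13* (r = 0.99 each), *WRKY6* for *WRKY53* (r = 0.97) and *WRKY70* for *WRKY6* (r = 0.92). *SESA1*, first by this measure for *SAG13*, had at most 1 count in each *atg5-1* library and is not read as alike. Replicate 1 of *lon1-2atg5-1* held the highest value of its genotype for *SAG13*, *NAP*, *WRKY53* and *WRKY6* and the lowest for *NYE1*, *NYC1*, *PAO* and *PPH*. Without it, the 6 called genes kept their calls and *NYC1* joined them.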

How the data were processed

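The authors made stranded mRNA libraries, trimmed paired reads, aligned them with HISAT2 to TAIR10 and counted reads per gene with HTSeq. The deposited counts are raw, and the deposited FPKM values are credited by the authors to Cufflinks. In the files each FPKM equalled the count over exonic length and library total, with lengths equal to TAIR10.1 for all 23819 genes that had any count, and 0 organelle genes are listed.

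Counts were filtered with filterByExpr (20157 genes kept), TMM-normalized and tested in edgeR 4.0.16 (R 4.3.3) with no covariate. SE was derived from the fold change and the F statistic (log2 change divided by the root of F). Normalized counts are at the mean library size. Groups follow the labels. The members, the 10 further lists and the tests were chosen with earlier results of these data known. Text names all members and breakdown genes, and of each other list up to 3 called genes at each end. Alternatives were DESeq2 1.42.0, limma 3.58.1 on log2(FPKM + 1) and log2(FPKM + 0.1), library size alone, 2 other filters, a replicate block and each library left out. The fits were also run on simulated counts with few changed genes and the same spread in both genotypes. These data differ in both respects, so that run does not show how well the calls hold here. Shared sequence was searched by BLAST at 90% identity over 100 bp, and no member matched another gene beyond the overlaps given. Further named genes overlap a gene on the opposite strand, among them *CLH2* by 913 bp, *TIC55* by 480 bp, *ATAF1* by 344 bp and *FRK1* by 175 bp.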

Additional observations from a re-analysis of the deposited data

How the results depend on the processing

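Of 750 values of named genes under the 13 alternatives, 688 kept direction and side of the threshold, 47 lost the call (11 genes), 4 gained it (4 genes) and 11 turned round (4 genes). The calls of *SAG13*, *WRKY53*, *NYE1* and *PPH* held under every alternative, and the 10 senescence genes had 4 to 7 calls with 1 library left out. The values that turned round were not called in either direction. With 1 library left out, *NAP* ranged from -0.43 to 0.22, *PAO* from -0.24 to 0.0179 and *CV* from -0.0987 to 0.15. *NAP* was 0.22, 0.0732 and 0.12 without *lon1-2atg5-1* replicate 2, *lon1-2atg5-1* replicate 3 and *atg5-1* replicate 2. *PAO* was 0.0179 and *SGRL* 0.017 without *lon1-2atg5-1* replicate 1. *CV* was -0.00197 with library size alone, -0.00651 and -0.00759 with limma on log2(FPKM + 1) and log2(FPKM + 0.1), and -0.0244, -0.0586 and -0.0987 without *lon1-2atg5-1* replicate 1 or 2 or *atg5-1* replicate 1. With 1 library left out, 3 to 7 of the other chlorophyll breakdown genes and 1 to 3 of the leaf genes were called. With at least 10 counts in every library 0 dry seed markers were called, since those called did not pass that filter. On log2(FPKM + 1), which shrinks low values, *WRKY53* was 2.01, *WRKY54* 1.80 and *NAC019* 1.2. The fitted change of *WRKY71*, not read above, was 1.27 on log2(FPKM + 1) and 2.83 on log2(FPKM + 0.1). The dry seed genes *CRA1*, *SESA1* and *CRU3*, whose fitted sizes are not read above, were fitted at 4.91, 5.98 and 6.52. These sizes depended on the constant added, at 1.8, 1.92 and 1.76 on log2(FPKM + 1) and 3.91, 4.42 and 4.37 on log2(FPKM + 0.1). The median over all genes lay between -0.0293 and 0.00647 under every scaling and filter.

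No shared deviation was seen between libraries of the same replicate number, whose deviations from the genotype means correlated at -0.04, -0.12 and -0.01. These values cannot show whether such libraries were grown or prepared together. With the number as a replicate block, 5 of the 10 senescence genes were called, *ORE1* not among them (adjusted p = 0.0611), and 10033 genes in all. *SAG12* had 1 count in *lon1-2atg5-1* replicate 1 and 0 in every other library. Pairs of *lon1-2atg5-1* libraries differed by 12.6, 33.1 and 14.3 in chi-square per degree of freedom. Pairs of *atg5-1* libraries differed by 5.8, 5.02 and 3.92, so *lon1-2atg5-1* libraries were the more variable. All were above counting error alone. The edgeR test fitted the spread of each gene over both genotypes together.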
